A study of Mus musculus with 4 samples.

Results

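Lymphocyte transcripts were followed in mouse liver through 9 genes: Gzma, Gzmb, Prf1, Nkg7 and Ccl5 of cytotoxic cells, Cd3e, Cd3g and Cd8a of T cells, and Cd79a of B cells. They were chosen as genes that mark these lineages, with every probe set (the group of short probes that reads 1 transcript) whose platform annotation names that gene and no other. All 9 genes were found, in 14 of 45037 probe sets, among 18193 genes read by probe sets with 1 symbol. The values came from total RNA of mature liver of C57BL/6J mice, labelled with biotin and hybridised to expression arrays. There were 2 arrays taken 48 h after a sham operation, which opens the animal but leaves the liver whole, and 2 taken 48 h after partial hepatectomy, in which liver is cut away and what is left grows back. No genotype or agent besides the surgery is labelled, both groups share strain, tissue and time, and the labels used here give neither the age of the mice, the share of liver removed nor the number of animals behind an array. The arrays of a group are biological duplicates by the design text, so an SD here is the spread between 2 arrays. The SEs, intervals and p-values from limma also draw on the variance of the other probe sets and do not measure that spread alone.

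The adult mouse liver holds resident natural killer cells, natural killer T cells, conventional T cells and a smaller number of B cells in its sinusoids and portal tracts. Cytotoxic lymphocytes kill a target cell by releasing granules in which perforin opens the membrane and granzymes, a family of serine proteases, cleave proteins inside the target. T cells recognise antigen through a receptor that signals by the CD3 chains, with CD8 or CD4 as co-receptor, and B cells through membrane immunoglobulin that signals by CD79A and CD79B. In whole-tissue RNA, fewer cells of a type and less RNA per cell cannot be told apart.

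The signals of 6 of the 9 genes were lower on both hepatectomy arrays than on either sham array, those of the other 3 overlapped between the groups, and none was higher on both. Gzma fell, from a mean signal of 149 ± 4.19 in sham to 48.5 ± 0.902 in hepatectomy livers (SD, n = 2 arrays each), and was the 1 member that passed the test. Over all 18193 genes, 20.3% were lower on both hepatectomy arrays and 24.9% higher on both. Without hepatectomy replicate 1, an array that also carried adrenal transcripts, 7 of the 9 lay below both sham arrays, against 37.8% of all genes. In the limma fit over 27022 probe sets, 8 of the 9 genes had a probe set bright enough to be tested, and Gzmb did not. A probe set that passed the brightness filter only through its sham signal had to differ, so the 8 are not read as a group. A gene was called at a Benjamini-Hochberg adjusted p of 0.05, a threshold passed by 916 probe sets (3.39%) and, with 1 probe set per gene, by 4.67% of 12560 genes, 1.09% downward and 3.57% upward. Called members were 1 lower and none higher. At an unadjusted p under 0.05 in limma, 5 members were lower and 0 higher, against 7.47% and 12.5% of tested genes. The 5 include Cd79a, which was tested only through its sham signal, so nothing is read from the count by unadjusted p.

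**Figure D1:**
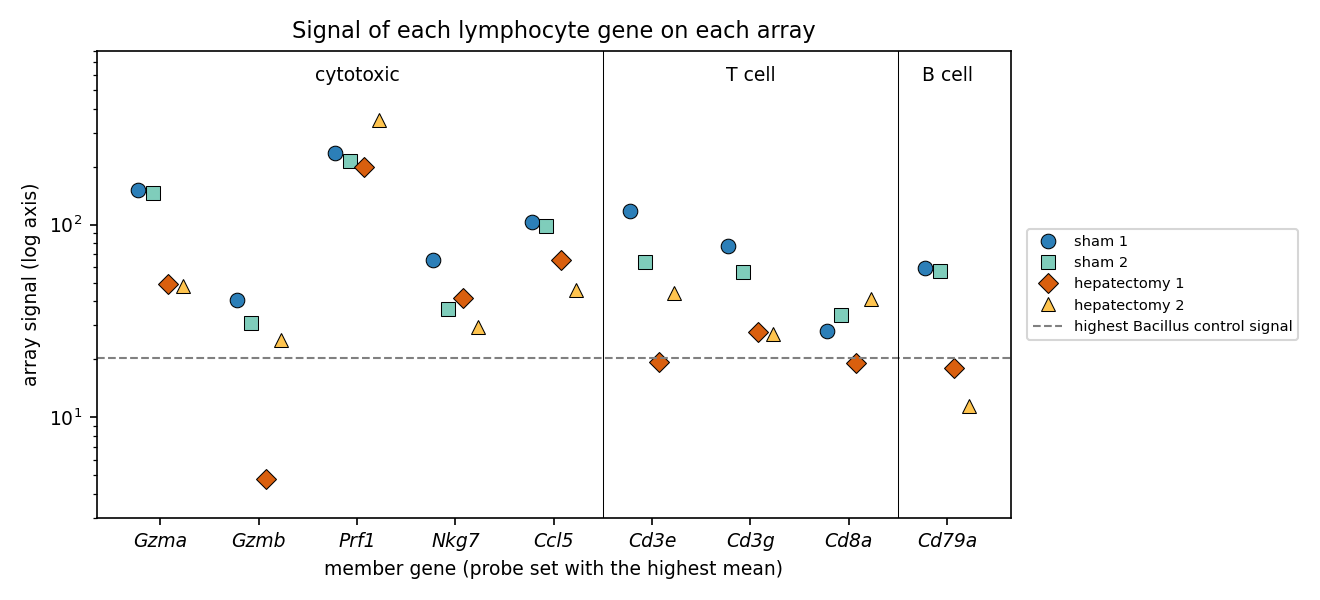
Array signal (log axis) of the 9 genes, each in its brightest probe set, on the 2 sham and 2 hepatectomy arrays, with a dashed line at 20.4, the highest signal of the Bacillus control probe sets. The 2 arrays of each group lie close together for Gzma, both hepatectomy arrays of Cd79a lie under the dashed line, and the groups overlap for Prf1, Nkg7 and Cd8a.

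Gzma encodes granzyme A, a protease of tryptase-like specificity and an abundant granzyme of natural killer cells. Its signal was 152 and 146 after sham surgery and 49.1 and 47.8 after hepatectomy. Replicates lay close together and the groups far apart. The log2 fold change was -1.46 ± 0.30 (SE, limma; 95% interval -2.16 to -0.77; adjusted p = 0.041). The call ended on leaving out sham replicate 1 or 2, at an adjusted p of 0.286 or 0.199, without the brightness filter (adjusted p = 0.156) and without a mean-variance trend (adjusted p = 0.0516), while leaving out each array in turn gave log2 fold changes from -1.49 to -1.44.

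Gzmb encodes granzyme B, which cleaves after aspartate and triggers caspases in the target. Its signal was 40.5 and 31.0 after sham surgery and 4.77 and 25.0 after hepatectomy. Both hepatectomy arrays were lower, and hepatectomy replicate 1 lay under the level of the Bacillus control probe sets, 20.4, which marks signal not told from background here. The difference was -1.06 on the log2 scale and -0.39 without hepatectomy replicate 1, so that array carried most of it. Without the brightness filter its adjusted p was 0.564.

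Prf1, which encodes perforin, was the 1 member with a log2 fold change above 0. Its brighter probe set had signals of 235 and 214 after sham surgery and 200.3 and 347 after hepatectomy. Hepatectomy replicate 1 was the lowest and replicate 2 the highest of the 4 arrays, and the log2 fold change of 0.23 ± 0.30 did not pass (95% interval -0.47 to 0.93; adjusted p = 0.779). Without hepatectomy replicate 2 it was -0.16. Its second probe set, too dim to be tested, had 32.9 and 15.8 after sham surgery and 18.9 and 32.9 after hepatectomy, again with overlap. Within each array, the log2 value of Gzma minus that of Prf1 was -0.60 and -0.53 after sham surgery and -1.86 and -2.66 after hepatectomy. The groups did not overlap in this difference, and an exact test of 2 arrays against 2 cannot give a two-sided p under 0.333. The pair was not planned and sets the 1 called member against the 1 member with a change above 0. Nothing is therefore read from the gap.

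Nkg7 encodes a granule membrane protein of natural killer and cytotoxic T cells. Its signal was 65.1 and 36.5 after sham surgery and 41.6 and 29.5 after hepatectomy. The groups overlapped, and the log2 fold change was -0.40 ± 0.41 (95% interval -1.35 to 0.55; adjusted p = 0.704). Ccl5 encodes the chemokine RANTES, which memory T cells and natural killer cells release on activation. Its signal was 104 and 98.8 after sham surgery and 65.3 and 45.9 after hepatectomy. Both hepatectomy arrays were lower, and the log2 fold change of -0.79 ± 0.33 did not pass (95% interval -1.55 to -0.03; adjusted p = 0.281).

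Cd3e and Cd3g encode the epsilon and gamma chains of the CD3 complex, which carries the signal of the T cell receptor into the cell. Cd3e had signals of 117 and 64.2 after sham surgery and 19.4 and 43.9 after hepatectomy. Both hepatectomy arrays were lower, but the sham arrays differed widely, and the log2 fold change of -1.32 ± 0.45 did not pass (95% interval -2.37 to -0.28; adjusted p = 0.19). It passed without hepatectomy replicate 2 (-1.78, adjusted p = 0.0437), where hepatectomy is 1 array, replicate 1, whose signal of 19.4 is under the control level and whose spread is assumed to be that of the sham arrays. It was -0.87 without hepatectomy replicate 1 (adjusted p = 0.382). Cd3g had signals of 77.1 and 56.5 after sham surgery and 27.8 and 26.9 after hepatectomy. Its hepatectomy arrays were nearly equal and lay below both sham arrays, with a log2 fold change of -1.06 ± 0.37 (95% interval -1.90 to -0.21; adjusted p = 0.197). The third CD3 chain, Cd3d, is no member and was looked up after these values were seen. It had 58.0 and 40.1 after sham surgery and 33.3 and 53.0 after hepatectomy, with overlapping groups and a log2 fold change of -0.16 ± 0.39 (adjusted p = 0.887). Cd247, which encodes a further chain of the complex and was also looked up afterwards, went the other way. Its signal was 22.5 and 13.8 after sham surgery and 67.5 and 37.3 after hepatectomy, with sham replicate 2 under the control level. The log2 fold change of Cd247 was 1.16 ± 0.44 and did not pass (adjusted p = 0.234).

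Cd8a encodes the alpha chain of the CD8 co-receptor of cytotoxic T cells. In the 1 of its 5 probe sets that could be tested, the signal was 28.1 and 34.1 after sham surgery and 19.2 and 41.1 after hepatectomy. The hepatectomy arrays held both the lowest and the highest value, and the log2 fold change was -0.09 ± 0.44 (95% interval -1.11 to 0.93; adjusted p = 0.949). The interval reaches beyond a 2-fold change in the downward direction, so a fall like that of Cd3g could not be told from no change. Of the 4 dimmer probe sets, 3 lay under the control level on all 4 arrays. The remaining dim one had 25.4 and 11.1 after sham surgery and 9.35 and 14.2 after hepatectomy. Within each array, Cd3g minus Cd8a on the log2 scale was 1.22 and 0.61 after sham surgery and 0.39 and -0.49 after hepatectomy. The Cd8a signal of 19.2 on hepatectomy replicate 1 was under the control level, so the value of that array is inexact. Cd3g had separated the groups and Cd8a had not, so nothing is read from this difference.

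Cd79a, which encodes the Ig-alpha signalling chain of the B cell receptor, had its hepatectomy signals under the control level. The signal was 59.2 and 57.7 after sham surgery and 17.9 and 11.4 after hepatectomy. The groups did not overlap, and against the control level of 20.4 the signal was at least 2.87-fold lower after hepatectomy. The fitted log2 fold change, which reads these dim signals as measured, was -1.54 ± 0.40 (95% interval -2.46 to -0.63), with an adjusted p of 0.087, above the threshold. After centring each array on its median it passed (adjusted p = 0.0407). Its mean log2 value was 6.07 after sham surgery and 4.52 after hepatectomy, the latter under the brightness filter. Cd79a was thus tested only through its sham signal and had to differ, so nothing is read from these adjusted p-values. With sham replicate 1 or 2 left out, the gene was too dim on average to be tested. Its partner Cd79b, looked up after these values were seen, had 102 and 118 after sham surgery and 32.3 and 51.9 after hepatectomy, with non-overlapping groups (log2 fold change -1.25 ± 0.35, adjusted p = 0.112).

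**Figure D2:**
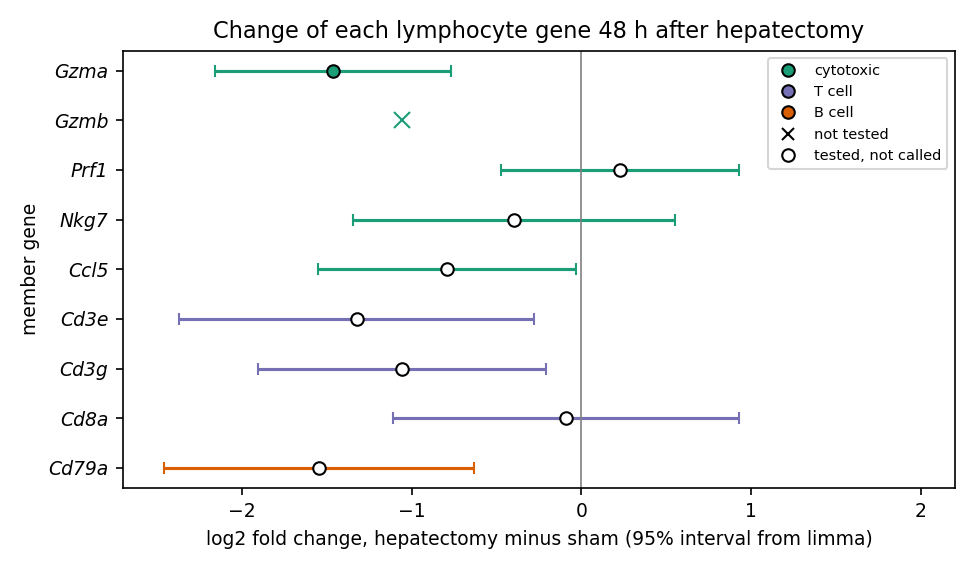
Log2 fold change (hepatectomy minus sham) of each gene with its 95% interval from limma; filled points passed an adjusted p of 0.05, open points did not, and the cross marks Gzmb, which was not tested. Only the point of Gzma is filled, and the intervals of Prf1, Nkg7 and Cd8a include 0.

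Promoter sequences are shown for the gene that fell, for 1 T cell and 1 B cell receptor gene whose groups did not overlap, and for Cd8a, whose groups did. RefSeq windows on GRCm38.p6 were given for 8 of the 9 genes; each sequence is the 250 bases before the annotated start, 5′ to 3′ on the gene's strand. The Gzma window is chr13:113100982-113101231 on the minus strand, inside the annotated span of Cdc20b, and that of Cd3g is chr9:44980432-44980681 on the minus strand. The Cd8a window is chr6:71373177-71373426 and the Cd79a window chr7:24897247-24897496, both on the plus strand. Capitals mark matches on either strand to short binding motifs of factors known in lymphocytes: ETS (GGAAGT), RUNX (TGTGGT), E-box (CAGGTG), T-box (AGGTGT), AP-1 (TGANTCA) and EBF (its palindromic core), and to the TATA box (TATAAA).
Gzma: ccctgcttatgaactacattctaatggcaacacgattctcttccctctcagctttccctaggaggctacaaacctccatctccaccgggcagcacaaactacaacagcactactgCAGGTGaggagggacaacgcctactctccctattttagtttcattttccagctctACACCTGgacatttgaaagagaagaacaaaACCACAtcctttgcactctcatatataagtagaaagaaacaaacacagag
Cd3g: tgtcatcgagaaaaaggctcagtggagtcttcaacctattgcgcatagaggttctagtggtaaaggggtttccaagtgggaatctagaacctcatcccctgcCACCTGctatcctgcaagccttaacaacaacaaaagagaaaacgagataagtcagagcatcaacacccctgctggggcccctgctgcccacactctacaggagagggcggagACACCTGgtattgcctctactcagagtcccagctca
Cd8a: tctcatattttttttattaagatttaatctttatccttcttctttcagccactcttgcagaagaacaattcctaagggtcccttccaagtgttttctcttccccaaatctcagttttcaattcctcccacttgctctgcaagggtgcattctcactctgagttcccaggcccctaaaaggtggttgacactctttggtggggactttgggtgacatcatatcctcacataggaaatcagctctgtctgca
Cd79a: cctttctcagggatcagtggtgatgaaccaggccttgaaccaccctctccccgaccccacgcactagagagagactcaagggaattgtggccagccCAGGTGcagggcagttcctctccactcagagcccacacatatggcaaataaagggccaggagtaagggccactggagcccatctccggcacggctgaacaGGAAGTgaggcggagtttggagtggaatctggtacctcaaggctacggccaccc
The Gzma window held 2 E-box matches, 1 RUNX match and 1 T-box match, the T-box match overlapping an E-box match. Cd3g held 2 E-box matches, 1 of them overlapping a T-box match in the same way, Cd79a held 1 E-box and 1 ETS match, and Cd8a held none of the 7 motifs. Among the windows not shown, Prf1 and Nkg7, whose groups overlapped as those of Cd8a did, held 5 and 2 matches. Gzmb and Cd3e, whose groups did not overlap, held 3 and 2. A relation of the matches to the changes was not tested. Over the 8 windows, 5 held a T-box match, 4 a RUNX match, 4 an E-box match, 3 an ETS match, 1 an AP-1 match and none an EBF or TATA match. Of 32851 promoter windows of the same length, 11.8% held the T-box letters, 14.0% RUNX, 17.2% E-box, 19.7% ETS, 6.75% AP-1, 0.779% EBF and 12.4% TATA. These are matches of letters and not sites of binding, and no binding was measured here.

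The lineages were then set side by side as means of the log2 values of their genes on each array. The cytotoxic mean was 6.78 and 6.52 after sham surgery and 5.83 and 6.08 after hepatectomy, a difference of -0.70. The T cell mean was 6.20 and 5.87 after sham surgery and 4.93 and 5.50 after hepatectomy, a difference of -0.82. Cd79a, the 1 B cell gene, had both hepatectomy arrays under the control level, so only the bound given above is available for it and no difference from the other lineages is given. In each lineage both hepatectomy arrays lay below both sham arrays. On hepatectomy replicate 1, Gzmb (4.77) in the cytotoxic mean and Cd3e (19.4) and Cd8a (19.2) in the T cell mean were under the control level. The 2 means of that array are therefore inexact. The cytotoxic mean minus the T cell mean, taken within each array, was 0.58 and 0.65 after sham surgery and 0.90 and 0.58 after hepatectomy, with overlapping groups and a difference of 0.13. A test of 2 arrays against 2 cannot reach a two-sided p under 0.333, so no lineage was shown to differ from another.

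**Figure D3:**
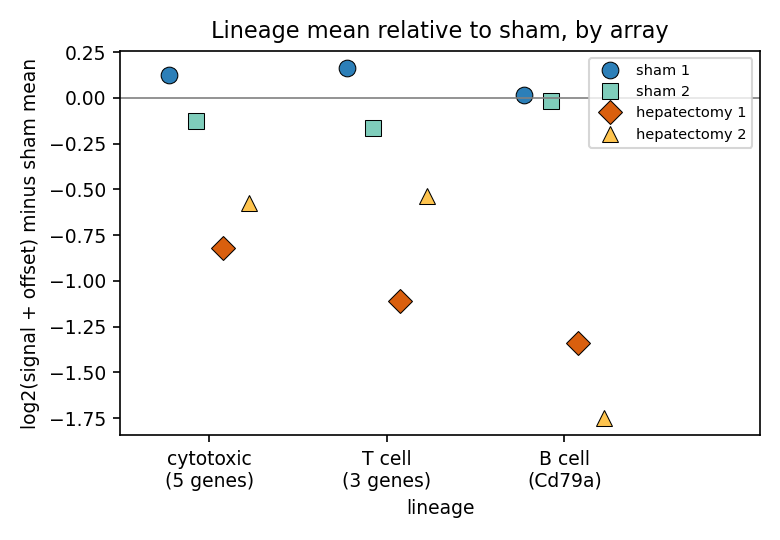
Mean log2(signal + offset) of each lineage's genes on each array, relative to the mean of the 2 sham arrays (line at 0). Hepatectomy arrays lie below both sham arrays in each lineage. Replicate 1 is drawn lower for the cytotoxic and T cell means, but Gzmb, Cd3e and Cd8a are under the control level there. Both hepatectomy points of Cd79a come from signals under that level. No order of the 2 hepatectomy arrays is read in any lineage.

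Of the 9 genes, 7 were highest on sham replicate 1 and 2, Prf1 and Cd8a, on hepatectomy replicate 2. The lowest array was hepatectomy replicate 1 for 4 genes and replicate 2 for 5. On hepatectomy replicate 1, 4 members lay under the control level, on replicate 2 it was 1, and on the sham arrays 0.

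A wider view came from lists of other genes of these cells. Beyond the members, 90 genes of cytotoxic and natural killer, T, B and plasma cells had a probe set, and 31 of the 90 lay lower on both hepatectomy arrays and 10 higher, against 20.3% and 24.9% of all 18193 genes. Without hepatectomy replicate 1, 45 of the 90 lay below both sham arrays (37.8% of all genes). None of the 46 that were tested passed in limma. At an unadjusted p under 0.05 in limma, 6 were lower and 3 higher, against 7.47% and 12.5% of all genes tested. The lower ones include Klrc1, Sh2d1a and Pou2af1, with both hepatectomy arrays under the control level. Genes tested only through their sham signal had to differ, so nothing is read from these counts.

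In the cytotoxic and natural killer list, members included, 12 of 34 genes were lower on both hepatectomy arrays and 3 higher. The shares over all genes were 20.3% and 24.9%. Of 13 tested Gzma alone passed. The median log2 fold change of the tested genes was -0.58, beside 0.02 over all genes tested and 0.16 over the tested genes in the members' range of mean signal. In the cytotoxic, T cell and B cell lists 1, 1 and 2 of the tested genes had both hepatectomy arrays under the control level, so their fitted changes are inexact. Genes that passed the filter only through their sham signal had to differ. Nothing is therefore read from the medians or the counts by unadjusted p, for this list and those below. Serpinb9, an inhibitor of granzyme B that protects the killer cell, had 288 and 292 after sham surgery and 544 and 157 after hepatectomy. Its groups overlapped (0.02 ± 0.49, adjusted p = 0.991), and it stood at -0.85 without hepatectomy replicate 1. Ctsw, a cathepsin of cytotoxic cells named after its value was seen, had 78.2 and 93.3 after sham surgery and 19.3 and 37.9 after hepatectomy (-1.38 ± 0.39, adjusted p = 0.117).

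In the T cell list, 10 of 31 genes were lower on both hepatectomy arrays and 3 higher, against 20.3% and 24.9% of all genes. None of 19 tested passed (median -0.35). At an unadjusted p under 0.05 in limma, 3 were lower and 2 higher, against 7.47% and 12.5% of all genes tested. Zap70, the kinase that binds phosphorylated CD3 chains, had 1075 and 858 after sham surgery and 1296 and 1128 after hepatectomy (0.33 ± 0.19, adjusted p = 0.451). These signals came from a probe set of the _x_at type. With _x_at and _s_at probe sets left out, another probe set of Zap70 stood at 0.54 (adjusted p = 0.341). Icos, a costimulatory receptor, had 109 and 108 after sham surgery and 37.2 and 97.0 after hepatectomy (-0.75 ± 0.43, adjusted p = 0.439). Gimap3, a GTPase of lymphocyte survival, differed by -0.47 ± 0.34 (adjusted p = 0.558). Themis, a T cell signalling protein, had 54.7 and 23.2 after sham surgery and 435 and 58.3 after hepatectomy (1.94 ± 0.79, adjusted p = 0.269). Hepatectomy replicate 1, the array with adrenal transcripts, was high; the difference was 0.58 without it, and 3.31 without hepatectomy replicate 2, where it passed (adjusted p = 0.000965) with 1 hepatectomy array.

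In the B cell list, 11 of 24 genes were lower on both hepatectomy arrays and 1 higher, against 20.3% and 24.9% of all genes. None of 15 tested passed (median -0.57). At an unadjusted p under 0.05 in limma, 3 were lower and 1 higher, against 7.47% and 12.5% of all genes tested. Cd72, a co-receptor, had 301 and 317 after sham surgery and 297 and 357 after hepatectomy and did not separate the groups (0.07 ± 0.23, adjusted p = 0.916; -0.01 after median centring). Bank1, an adaptor of B cell signalling, had 91.5 and 149 after sham surgery and 59.8 and 77.9 after hepatectomy (-0.71 ± 0.35, adjusted p = 0.368). Ebf1, a transcription factor that stromal and fat cells also make, had 142 and 53.6 after sham surgery and 209 and 53.8 after hepatectomy (0.27 ± 0.62, adjusted p = 0.884). Ly6d, which epithelia express as well as B cell precursors, was the 1 gene higher on both hepatectomy arrays. It had 60.1 and 55.5 after sham surgery and 5224 and 368 after hepatectomy (4.40 ± 0.97, adjusted p = 0.0536). Its difference was 2.51 without hepatectomy replicate 1 and 6.30 without hepatectomy replicate 2, each with 1 hepatectomy array left. Ly6d passed after median centring (adjusted p = 0.0018), with an offset of 1 (0.0484), with a filter at the 60th percentile (0.0406) and without _x_at and _s_at probe sets (0.0468). It did not pass with an offset of 32 (0.0678), after quantile normalization (0.0546) or with the mean of probe sets (0.0845). Nor did it without the filter (0.191), without the trend (0.226) or with robust eBayes (0.421).

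Among 10 plasma cell and immunoglobulin genes, 4 were lower on both hepatectomy arrays and 3 higher, against 20.3% and 24.9% of all genes. None of 7 tested passed (median -0.29). At an unadjusted p under 0.05 in limma, 1 was lower and 0 higher, against 7.47% and 12.5% of all genes tested. Jchain, which joins secreted antibodies, had 126 and 82.7 after sham surgery and 40.1 and 59.9 after hepatectomy (-0.94 ± 0.37, adjusted p = 0.248). Igk had 312 and 355 after sham surgery and 126 and 389 after hepatectomy (-0.56 ± 0.45, adjusted p = 0.61), and stood at 0.22 without hepatectomy replicate 1. Igha differed by 0.59 ± 0.37 (adjusted p = 0.489). Sdc1, a plasma cell marker that hepatocytes make in quantity, had 8497 and 7607 after sham surgery and 10782 and 8904 after hepatectomy (0.29 ± 0.13, adjusted p = 0.327). With the mean of its probe sets it stood at 0.61 and passed in limma (adjusted p = 0.0471). Immunoglobulin and T cell receptor segments are near-identical copies, and probe sets that name several of them were not used.

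**Figure D4:**
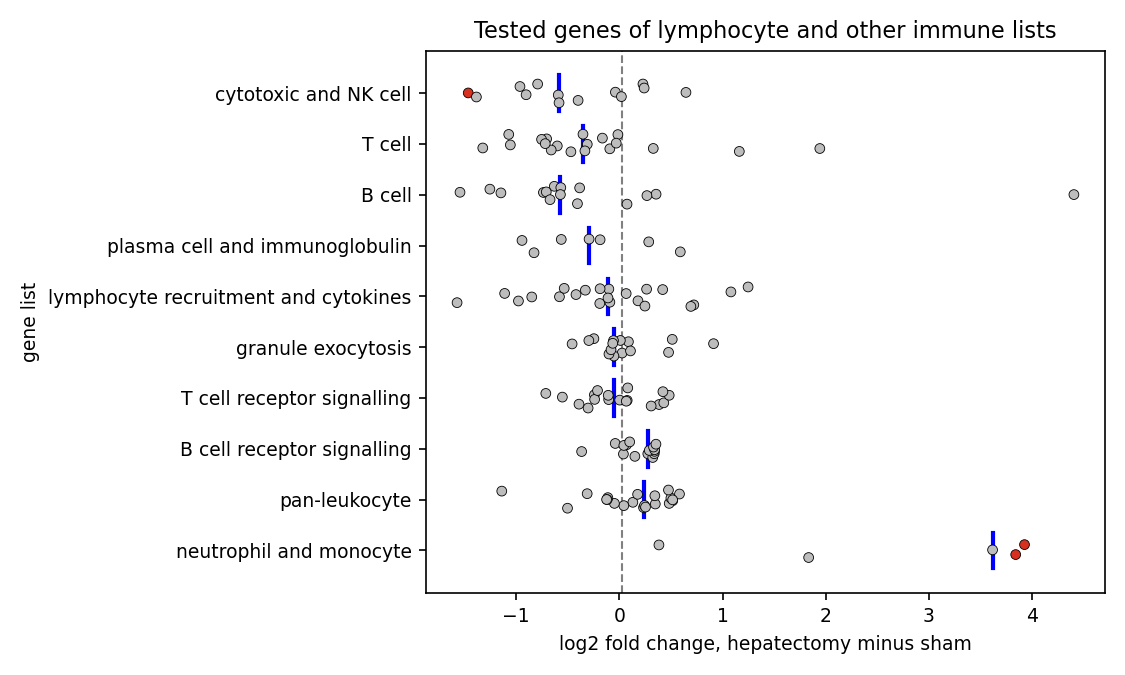
Log2 fold change (hepatectomy minus sham) of every tested gene of 10 lists; red points passed an adjusted p of 0.05, blue bars are list medians and the dashed line is the median of all genes tested, 0.02. Of the lymphocyte genes only Gzma is red; the lists differ in brightness, and the filter on dim genes bears on their medians.

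Genes of the pathways in which the members act were counted as well. None of 15 tested granule exocytosis genes, 18 of T cell receptor signalling, 15 of B cell receptor signalling and 22 of lymphocyte recruitment and cytokines passed in limma, with medians of -0.05, -0.05, 0.28 and -0.11. Lower and higher at an unadjusted p under 0.05 were 1 and 2, 1 and 1, 0 and 0, and 4 and 1. The shares over all genes tested were 7.47% and 12.5%. Of the granule exocytosis genes, those under that unadjusted p were named after their values were seen. Rab27a (0.91 ± 0.28, adjusted p = 0.137) and Srgn (0.48 ± 0.17, adjusted p = 0.2) were the higher ones. Stxbp2 (-0.46 ± 0.20, adjusted p = 0.293) was the lower one. Of the recruitment genes, and named after their values were seen, the chemokine Cxcl9 had 1071 and 737 after sham surgery and 430 and 199 after hepatectomy (-1.57 ± 0.36, adjusted p = 0.0591). Its receptor Cxcr3 had 99.7 and 90.1 after sham surgery against 33.3 and 57.3 after hepatectomy (-0.98 ± 0.36, adjusted p = 0.225). Cxcr6, which marks liver natural killer T and resident lymphocytes, had 48.7 and 35.7 after sham surgery and 13.5 and 16.0 after hepatectomy, both under the control level, and was at least 2.04-fold lower (adjusted p = 0.223). Icam1 of the same list, also named after its values were seen, went the other way. It had 614 and 905 after sham surgery and 2594 and 1224 after hepatectomy (1.25 ± 0.34, adjusted p = 0.107). Of the 32 recruitment genes found, 6 were lower on both hepatectomy arrays and 5 higher. The shares over all 18193 genes were 20.3% and 24.9%. Among 19 tested genes of MHC class I presentation and natural killer ligands 1 fell, Clec2d, the ligand of an inhibitory natural killer receptor, from 4328 and 5113 to 2049 and 2638 (-1.01 ± 0.17, adjusted p = 0.018). Leaving out sham replicate 1 or 2 ended its call, at an adjusted p of 0.0596 or 0.115, as did the fits without the filter (adjusted p = 0.0776) or the trend (adjusted p = 0.163). The class I genes themselves did not pass, and the median of that list was -0.01.

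Markers of other cells moved in both directions beside the lymphocyte genes. Pan-leukocyte genes had a median of 0.23 with none of 21 called (1 lower and 0 higher at an unadjusted p under 0.05 in limma). For this and the counts below, the shares over all genes tested were 7.47% lower and 12.5% higher. The summed signal of 13 neutrophil and monocyte genes was 575 and 514 after sham surgery and 11594 and 3792 after hepatectomy, where S100a8 (3.93 ± 0.51, adjusted p = 0.00636) and S100a9 (3.84 ± 0.36, adjusted p = 0.0015), subunits of calprotectin, rose. Of 16 macrophage genes the scavenger receptor Marco rose (3.45 ± 0.32, adjusted p = 0.00145) and the growth factor receptor Csf1r fell (-0.70 ± 0.13, adjusted p = 0.0317). The call of Csf1r ended without sham replicate 1, sham replicate 2 or hepatectomy replicate 1 (adjusted p from 0.0609 to 0.217), after median centring (adjusted p = 0.0622), without the filter (adjusted p = 0.0854) and without the trend (adjusted p = 0.206), and that of S100a8 without the trend (adjusted p = 0.0972), without the filter (adjusted p = 0.0514) and with robust eBayes (adjusted p = 0.0978). Car1, a carbonic anhydrase of red cells, fell (-4.14 ± 0.46, adjusted p = 0.00293; 0.052 without the trend), and Fabp4 of fat and endothelial cells rose (1.53 ± 0.25, adjusted p = 0.0157; 0.102 without sham replicate 1, 0.0777 without the filter, 0.141 without the trend and 0.0581 with the mean of its probe sets). None of the 7 dendritic cell, 3 platelet, 3 pancreas and 4 mesothelium genes tested was called in limma, with 1, 0, 2 and 0 lower and 1, 1, 0 and 1 higher at an unadjusted p under 0.05. The 11 adrenal genes summed to 258 and 249 in the sham samples and to 20937 and 239 after hepatectomy, and 10 of the 11 were highest on hepatectomy replicate 1. None of the 8 adrenal genes tested was called in limma (0 lower and 1 higher at an unadjusted p under 0.05). The 8 hepatocyte genes summed to between 111991 and 131160 on all 4 arrays, and none was called, lower or higher, also at an unadjusted p under 0.05. As a measure of RNA integrity, beta-actin probes at the 3′ end over those at the 5′ end gave 2.75 and 2.35 for sham and 2.40 and 2.02 after hepatectomy. The part of these differences in the lymphocyte values was not tested; the log2 fold change of Gzma was -1.48 without hepatectomy replicate 1 (adjusted p = 0.0464).

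Genes with the most similar profile over the 4 arrays were found by the root mean square distance of array-centred log2 values, as a description. Nearest to the cytotoxic mean were Prkag2os1 (distance 0.025), Isoc2b (0.029) and Dvl2 (0.030), and 748 of 12552 genes lay within 0.2. Nearest to the T cell mean were Cracr2b (0.023), Polg2 (0.028) and Emc9 (0.041), with 268 genes within 0.2. Nearest to Cd79a, with its hepatectomy signals under the control level, were Vps13c (0.079), Sucnr1 (0.107) and Slc35a4 (0.114), with 13 genes within 0.2. Of these 9 genes Sucnr1 (-1.64 ± 0.21, adjusted p = 0.00586) and Slc35a4 (-1.35 ± 0.23, adjusted p = 0.0203) fell, and none of the 9 was on a lymphocyte list. Neither call held in every fit: without sham replicate 1 Sucnr1 stood at -1.49 (adjusted p = 0.0712), and a second probe set of Slc35a4 at 0.0024 (adjusted p = 0.999).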

How the data were processed

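Total RNA of mouse liver was measured on 4 arrays. The authors deposited linear intensities, 1 per probe set for each array; the submitters' processing notes name GCOS 1.4 and none of its settings. The mean signal after trimming 2% at each end was 500 on every array, so each array was scaled before deposit, and this was kept. Of 45101 probe sets 64 controls were left out; 34945 of the rest had 1 symbol in the platform annotation, 932 several and 9160 none.

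Signals were taken to log2 after adding 8.57, their 20th percentile, which understates the change of dim genes. Probe sets with a mean under the 40th percentile (5.09) were left out. The comparison used limma's lmFit and eBayes, version 3.58.1 (R 4.3.3, mean-variance trend, two-sided, Benjamini-Hochberg over 27022 probe sets; 2 residual and 6.02 prior degrees of freedom). A gene was read in its tested probe set with the highest mean. The code was tested on simulated data. The control level is the highest value among 27 spike-in control probe sets of Bacillus subtilis.

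The members, lists and settings were chosen with earlier results of these data known. Named were the 9 members, up to 4 called genes of each list, the 4 brightest of each lymphocyte list and the 3 genes nearest to each lineage; others are marked. The number of arrays limits the precision.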

Additional observations from a re-analysis of the deposited data

How the results depend on the processing

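Arrays per group were 2, and hepatectomy signals of 4 members lay under the control level on at least 1 array, which limits the precision. The 916 called probe sets became 308 without the brightness filter, 258 without a mean-variance trend and 341 to 2012 on leaving out 1 array. The 1 called member, Gzma, became 2 after median centring (with Cd79a) and 0 without the filter, with a filter at the 60th percentile or without the trend; leaving out 1 array gave 0 (either sham array), 1 (hepatectomy replicate 1) and 2 (hepatectomy replicate 2, with Cd3e); the lone array left in a group is assumed to vary like the other group. Gzma could not be tested under the stricter filter. Cd79a was tested only through its sham signal, so nothing is read from its calls. Over the 4 lymphocyte lists the count of called genes, 1, became 2 with an offset of 1, 3 after median centring, 0 without the filter or the trend, and 0 to 7 on leaving out 1 array. As both groups carry replicate numbers, a replicate block was tried: it gave 1943 probe sets, 2 members (Gzma and Cd79a) and 5 list genes, but same-numbered arrays share only a number (correlation of deviations 0.102 over 2 pairs). With all 4 arrays kept, directions changed only for values near 0 that had not passed. Serpinb9 was -0.066 after median centring, -0.063 after quantile normalization and -0.14 with the mean of its probe sets. Cd72 was -0.012 and -0.033 under the first 2 of these. On leaving out 1 array, Prf1 ranged from -0.16 to 0.61, Cd8a from -0.20 to 0.33 (0.02 without sham replicate 2), Serpinb9 from -0.85 to 0.89, Cd72 from -0.054 to 0.20, Ebf1 from -0.63 to 1.17, Igk from -1.35 to 0.22 and Slc35a4, where another probe set stood for the gene, from -1.53 to 0.0024. Of these genes, Slc35a4 had passed in the main fit (-1.35, adjusted p = 0.0203 in limma). The cytotoxic minus T cell difference ranged from -0.04 to 0.29. Counts of members below both sham arrays without hepatectomy replicate 1 were added after seeing the data.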
